A study of Homo sapiens with 12 samples.

Results

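The genes described here are 10 that mark the epithelial or the mesenchymal state of a cell, taken by name from the 25343 genes of a read-count table. The 5 epithelial genes were CDH1, EPCAM, ESRP1, GRHL2 and CLDN4, and the 5 mesenchymal genes were CDH2, VIM, ZEB1, ZEB2 and SNAI2. All 10 had a row in the table, and 9 entered the tests, because SNAI2 was too low. RNA was sequenced from SW48, a colorectal cancer line, and OVK18, an ovarian cancer line, both of which expressed Cas9. Cells of each line had received 1 of 3 guide RNAs by transduction 72 h before harvest: sgCh2-2, a control that cuts between genes on chromosome 2, or sgWRN2 or sgWRN3, which cut the gene of the WRN helicase. Every line and guide had 2 libraries, A and B, so that 12 libraries formed 6 groups. The labels do not say whether A and B were separate cultures, and p-values then measure only the spread between these libraries. Each tissue of origin is represented by 1 line, so line and tissue cannot be told apart.

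Epithelial cells hold to each other through E-cadherin, the product of CDH1, and through claudin-based tight junctions, and the splicing factor ESRP1 and the transcription factor GRHL2 maintain that state. ZEB1, ZEB2 and the SNAI2 product SLUG bind E-box elements and repress CDH1 and other junction genes, and their activity is tied to N-cadherin (CDH2) and to the intermediate filament vimentin (VIM). ZEB1 and ZEB2 are in turn held down by the miR-200 family of microRNAs, whose genes ZEB1 and ZEB2 repress. Carcinoma lines can rest in either state or between them.

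Libraries held 15423162 to 32581625 counts. WRN, the targeted gene, stood at 91.2 and 112 CPM (counts scaled to library depth with TMM factors) in the SW48 control libraries and at 34.1 to 56.9 CPM in the 4 SW48 libraries with a WRN guide. In OVK18 it stood at 32.0 and 39.8 CPM with the control guide and at 21.0 to 23.0 CPM with a WRN guide. In both lines the libraries with WRN guides were all below the controls (pooled log2 fold change -1.27, SE 0.132, adjusted p = 0.00409 in SW48, and -0.71, SE 0.136, adjusted p = 0.206 in OVK18). The same was so for 5.33% of all tested genes in SW48 and for 3.84% in OVK18. Of 6 intestinal markers, CDX2, HNF4A and CEACAM5 stood at 49.8 CPM or more in every SW48 library. CDH17 stood at 11.2 to 15.6 CPM there and VIL1 at only 1.27 to 2.16 CPM, and LGALS4 had 5 counts over all 6 libraries. Of 6 Müllerian and ovarian markers, PAX8, MUC16 and ESR1 had 1, 2 and 4 counts over the 6 OVK18 libraries, MSLN had 5, WT1 reached 1.05 CPM, and HOXA11 stood at 37.6 to 45.8 CPM. Of the 4 tested, WT1 and HOXA11 were higher in OVK18, and PAX8 (3.94 to 6.21 CPM in SW48) and MSLN (34.4 to 48.0 CPM) were higher in the colorectal line. WT1 passed the filter on low counts only through OVK18, and PAX8 and MSLN only through SW48, so these had to differ. HOXA11 alone would have passed on either line. With the control guide, 33.9% of all tested genes were higher in SW48 and 34.7% lower, at an adjusted p under 0.05. The leukocyte markers CD3E and TYROBP and the endothelial marker PECAM1 were at 0 in all 12 libraries. The 6 endothelial markers summed to 8.44 to 14.6 CPM in SW48 and 6.35 to 9.23 CPM in OVK18, nearly all of it EGFL7 (8.44 to 14.4 and 6.29 to 9.19 CPM). The 6 leukocyte markers summed to 10.5 to 14.0 CPM in SW48 and to 3.996 to 6.17 CPM in OVK18. Most of that was CD68 (7.37 to 10.1 and 3.84 to 6.14 CPM), and PTPRC (CD45) stood at 2.27 to 4.18 CPM in SW48.

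The epithelial and the tested mesenchymal genes differed between the lines in opposite directions, although VIM and SNAI2 were low in both lines. With the control guide, all 5 epithelial genes were higher in SW48 and the 4 tested mesenchymal genes were higher in OVK18, 9 called of 9 tested, against 68.6% of all 14199 genes tested (33.9% higher in SW48 and 34.7% lower). A call is an adjusted p under 0.05 in edgeR's quasi-likelihood test. CDH1, ESRP1, GRHL2 and CLDN4 passed the filter on low counts only through SW48, and CDH2 and ZEB2 only through OVK18, so those 6 had to differ and their number is a description. EPCAM, VIM and ZEB1 would have passed on either line alone. In bulk RNA, fewer cells that express a gene and less RNA per cell cannot be told apart.

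**Figure D1:**
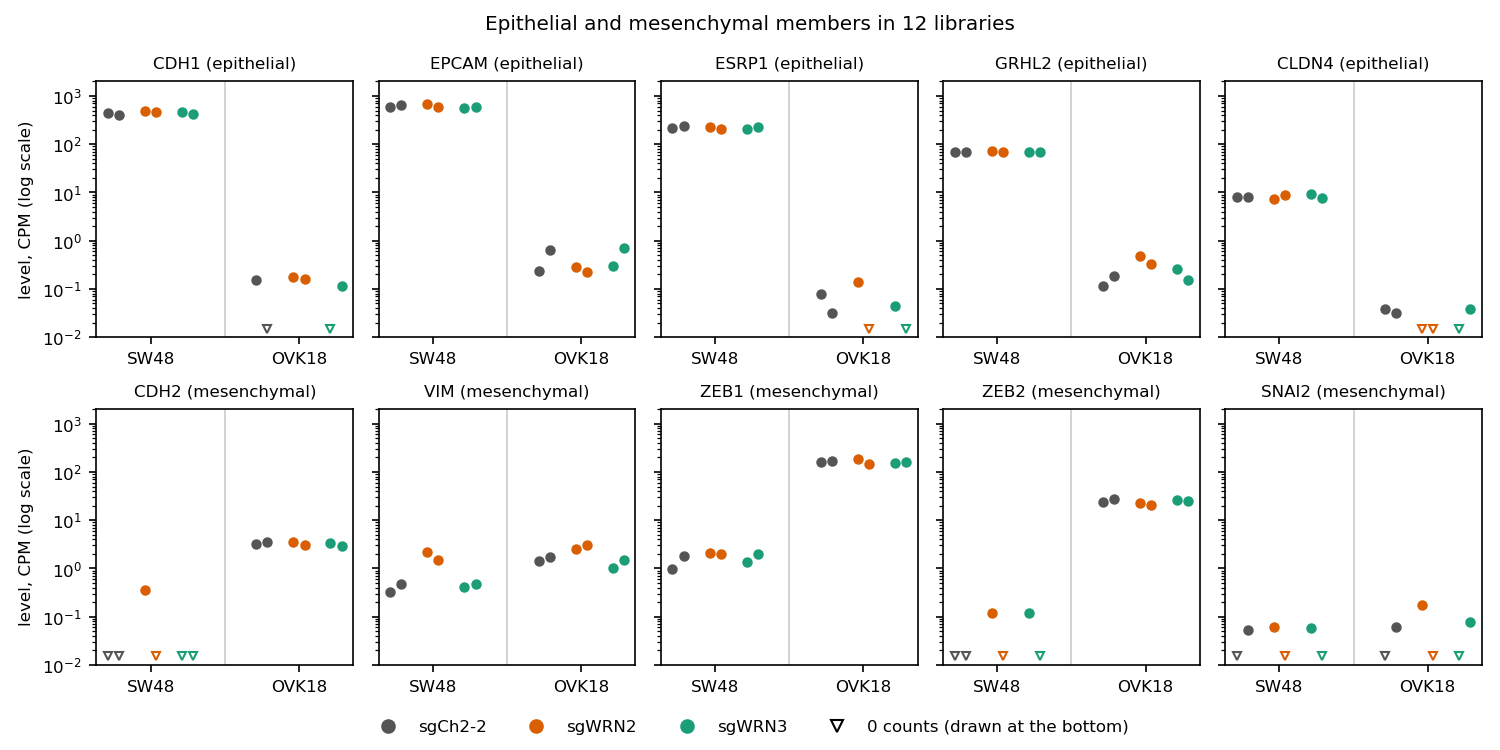
Level of each of the 10 genes in the 12 libraries, in CPM on a log axis, by line and coloured by guide, where each point is 1 library and an open triangle at the bottom is a library with 0 counts. In SW48 the epithelial genes stand from 7.32 CPM (CLDN4) to 682 CPM (EPCAM), in OVK18 ZEB1 stands at 145 to 187 CPM, and VIM is at 3.01 CPM or less in all 12 libraries.

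CDH1 stood at 450 and 408 CPM in the SW48 control libraries A and B, at 496 and 465 with sgWRN2, and at 459 and 428 with sgWRN3. In OVK18 it had 4 and 0 counts with the control guide, 5 and 3 with sgWRN2, and 0 and 3 with sgWRN3. The 6 SW48 libraries were all above the 6 OVK18 libraries, and OVK18 was at 0 in 2 of them. With the control guide, 41.6% of all tested genes were higher in SW48 without overlap, and CDH1 passed the filter only through SW48. Over the control libraries, CDH1 was 6307 times higher in SW48 (95% counting interval 2463 to 23149.8). That interval covers counting error only, here and below.

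EPCAM, which encodes a surface adhesion protein of epithelial cells, stood at 583 and 649 CPM in the SW48 controls, at 682 and 596 in the sgWRN2 libraries and at 562 and 598 in the sgWRN3 libraries. The OVK18 libraries held 0.233 and 0.650 CPM, 0.280 and 0.219, and 0.305 and 0.698 in the same order. EPCAM kept 64 counts over the 6 OVK18 libraries, the most of the epithelial genes there, and no library of either line came near the other line. The log2 difference between lines in the control libraries was 10.36 (SE 0.262, adjusted p = 7.15e-12).

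ESRP1, the epithelial splicing regulator, stood at 218 and 240 CPM in the SW48 controls, 230 and 208 with sgWRN2 and 211 and 228 with sgWRN3. OVK18 held 2 and 1 counts in the controls, 4 and 0 with sgWRN2 and 1 and 0 with sgWRN3. GRHL2, the grainyhead-like factor, was the steadiest epithelial gene in SW48, at 68.6 and 68.3 CPM with the control guide, 71.3 and 68.8 with sgWRN2, and 67.5 and 68.0 with sgWRN3. Its 39 counts in OVK18 were spread over all 6 libraries, from 3 to 14 each. CLDN4, a tight-junction claudin, was the lowest epithelial gene in SW48, at 7.32 to 9.30 CPM, and had 3 counts in OVK18, with 3 libraries at 0. Over the control libraries the ratio of SW48 to OVK18 was 4382 for ESRP1 (interval 1499 to 21253), 442 for GRHL2 (233 to 968) and 238 for CLDN4 (65.3 to 1968). The interval of CLDN4 overlaps those of EPCAM (898 to 1984), ESRP1 and GRHL2, and the interval of ESRP1 overlaps those of CDH1 and EPCAM. No gap therefore divides these ratios into groups. By counting error alone, the interval of CDH1 lay above those of EPCAM, GRHL2 and CLDN4, and that of ESRP1 above that of GRHL2. These intervals leave out the spread between libraries, so they cannot rank the genes.

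Among the mesenchymal genes, the repressor ZEB1 was the most abundant in OVK18. It stood at 160 and 169 CPM in the OVK18 control libraries, 187 and 145 with sgWRN2, and 153 and 165 with sgWRN3. SW48 held 0.993 and 1.78 CPM, 2.12 and 2.04, and 1.37 and 1.99, which is 23 to 35 counts in each library. ZEB1 was thus detected in every library of both lines and differed by a log2 value of -6.97 between the controls (SE 0.225, adjusted p = 4.34e-11), a ratio of 128 in favour of OVK18 (interval 100.5 to 167).

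ZEB2, the paralog of ZEB1, stood at 23.4 and 27.1 CPM in the OVK18 controls, 23.3 and 20.2 with sgWRN2, and 26.1 and 25.3 with sgWRN3. SW48 had 0 counts in 4 libraries and 2 counts each in sgWRN2 A and sgWRN3 A. CDH2 stood at 2.91 to 3.54 CPM in the 6 OVK18 libraries, and 5 of the 6 SW48 libraries were at 0. The exception was sgWRN2 A, with 6 counts. Against a floor of 3 counts over the SW48 control libraries, ZEB2 was at least 422-fold higher and CDH2 at least 56.3-fold higher in the OVK18 controls. Both genes were at 0 in both SW48 control libraries.

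VIM was low in both lines. The OVK18 libraries stood at 1.44 and 1.73 CPM with the control guide, 2.49 and 3.01 with sgWRN2, and 1.05 and 1.47 with sgWRN3, and the SW48 control libraries at 0.320 and 0.486 CPM. The control groups did not overlap, as was so for 42.6% of all tested genes in that direction, and VIM was lower in SW48 by a log2 value of -2.03 (SE 0.363, adjusted p = 3.09e-04), the least of the 9 differences. SNAI2 had 3 counts over the 6 SW48 libraries and 9 over the 6 OVK18 libraries, with 0 to 5 in any library. A count of 0 allows up to 0.0260 CPM in SW48 and 0.0195 CPM in OVK18 when the 6 libraries of a line are summed, so SNAI2 lay at or near the floor in SW48 and no line difference was detectable at this depth (ratio 2.25, interval 0.562 to 12.9).

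Levels of different genes were compared per length, as fragments scaled by transcript length and depth (FPKM) from the authors' Cufflinks table. In SW48 the order of median FPKM over 6 libraries was EPCAM at 288, CDH1 at 74.1, ESRP1 at 46.1, GRHL2 at 9.97 and CLDN4 at 3.87. The ranges of these 5 genes did not overlap: EPCAM spanned 264 to 311 FPKM, CDH1 64.0 to 77.4, ESRP1 42.2 to 50.6, GRHL2 9.19 to 10.5 and CLDN4 3.29 to 4.53. In OVK18 the order among the mesenchymal genes was ZEB1 at 20.7, ZEB2 at 2.26, CDH2 at 0.596, VIM at 0.575 and SNAI2 at 0.0122 FPKM. ZEB1, at 19.6 to 23.7 FPKM, and ZEB2, at 1.92 to 2.42, stood apart from the rest, whereas VIM (0.362 to 1.17) covered the whole range of CDH2 (0.534 to 0.616). OVK18 therefore carried the repressors ZEB1 and ZEB2 at a higher level per length than CDH2 and VIM, and the repressor gene SNAI2 at a lower one.

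The mature microRNAs of the miR-200 family are shown because they tie the epithelial to the mesenchymal genes. Sequences are from RefSeq, and the capitals mark bases 2 to 8, the seed that pairs with target transcripts. The family falls into 2 seed groups, AAUACUG for the upper 3 lines and AACACUG for the lower 2.
hsa-miR-200b-3p: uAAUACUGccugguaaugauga
hsa-miR-200c-3p: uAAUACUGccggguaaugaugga
hsa-miR-429: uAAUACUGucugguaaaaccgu
hsa-miR-200a-3p: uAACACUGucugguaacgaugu
hsa-miR-141-3p: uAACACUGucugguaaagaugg
Exact matches to the 7 bases that pair with either seed were counted in the longest 3′ UTR of each gene in the GENCODE 29 annotation. ZEB1 held 9 (6 and 3 for the respective seeds, in 2552 bases). Of 2561 genes with UTRs of like length, ZEB1 itself included, 0.039% held at least as many. ZEB2 held 9 (5 and 4, in 5373 bases), and 0.171% of 1173 such genes, ZEB2 included, held at least as many. ESRP1 held 2, GRHL2 and SNAI2 held 1 each, and CDH1, EPCAM, CLDN4, CDH2 and VIM held none. A match is a run of letters, not a measured site. Libraries made from poly(A) RNA do not measure mature microRNAs. The rows of the 5 hairpin genes MIR200A, MIR200B, MIR429, MIR200C and MIR141 held 1, 5, 5, 5 and 9 counts over the SW48 libraries and 0 over the OVK18 libraries.

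The line difference was measured again from the levels in the sgWRN2 and in the sgWRN3 libraries. The lines are the same and all 12 libraries share a fit and its estimate of the spread, so this is no independent repeat. In the sgWRN2 libraries 8 of the 9 tested genes were called in the same directions (66.6% of all tested genes), and in the sgWRN3 libraries all 9 were (68.5%). The 6 genes that passed the filter on low counts through 1 line had to differ here too, so these counts are a description. Of the 3 that would have passed on either line alone, EPCAM and ZEB1 were called with both guides. VIM was the exception with sgWRN2, where SW48 stood at 2.24 and 1.47 CPM and OVK18 at 2.49 and 3.01. The libraries of the lines did not overlap there, as was so for 40% of all tested genes in that direction, but the log2 difference was -0.55 (SE 0.295, adjusted p = 0.116), against -2.03 with the control guide and -1.48 (SE 0.398, adjusted p = 0.00547) with sgWRN3. The sgWRN3 call for VIM was lost without OVK18 sgWRN3 B (-1.19, adjusted p = 0.0518) and on the log2(FPKM + 1) scale (-0.25, adjusted p = 0.0562).

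The other comparison the design allows is between WRN and control guides within a line. With sgWRN2 and sgWRN3 averaged, no gene of the 9 was called in SW48, against 0.866% of all tested genes, or in OVK18, against 0.0282%. Of the 9, 1 in SW48 (VIM) and 0 in OVK18 had an unadjusted p under 0.05, as did 7.84% and 4.04% of all tested genes. DESeq2 and limma-voom called 0 in both lines, although DESeq2 gave 2 of the 9 no adjusted p in each line. At an unadjusted p under 0.05 both tools counted 2 in SW48. In OVK18 they counted 0 and 1. The difference between the lines in the response to both guides was called for 0 of the 9 (0.0282% of all tested genes), with 1 at an unadjusted p under 0.05 by edgeR (2.75% of all tested genes), 0 by DESeq2 and 3 by limma-voom.

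In SW48 the pooled log2 differences of the epithelial genes with the WRN guides ranged from -0.064 for ESRP1 to 0.11 for CDH1, with SEs from 0.1002 to 0.173. GRHL2 differed by 0.0088 (SE 0.1002) and EPCAM by -0.018 (SE 0.132). The summed level of the 5 epithelial genes was 1308 to 1487 CPM over the 6 SW48 libraries. With sgWRN2 alone, both libraries were above both controls for CDH1 and GRHL2 (21.6% of all tested genes), with log2 differences of 0.16 (SE 0.157) and 0.033 (SE 0.116), adjusted p = 0.769 and 0.983. In these libraries the 5 epithelial genes thus stayed within a narrow band while WRN itself differed.

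**Figure D2:**
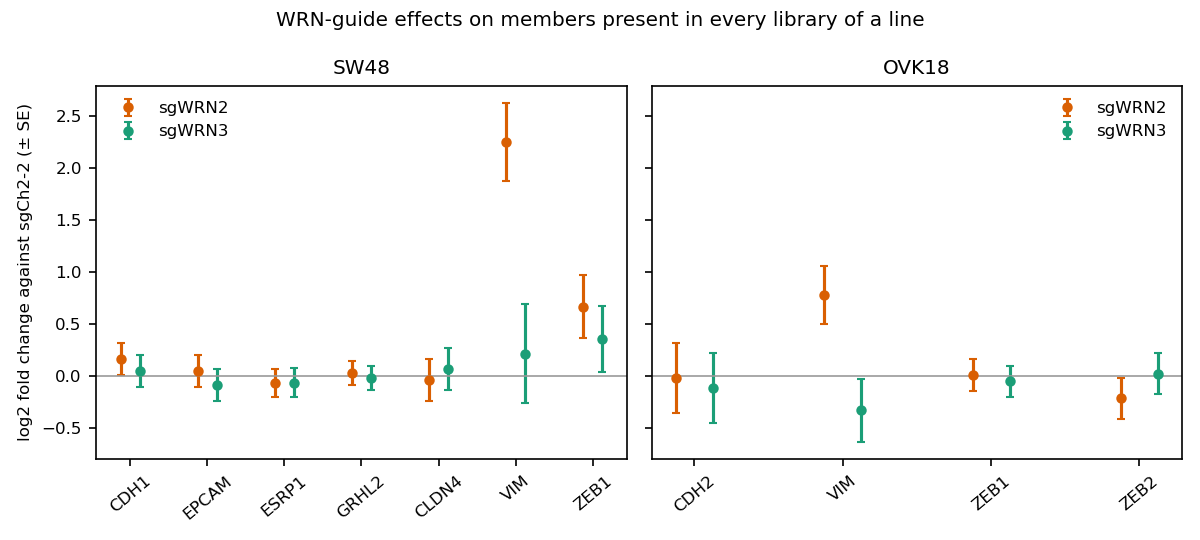
Log2 fold change of each gene with sgWRN2 and with sgWRN3 against the control guide, with its standard error, for genes with 5 or more counts in every library of a line. In SW48 the 5 epithelial genes lie between -0.088 and 0.16 with either guide, and VIM with sgWRN2 stands apart at 2.25.

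VIM in SW48 was the exception. It had 10 and 9 counts (0.320 and 0.486 CPM) with the control guide, 37 and 23 counts (2.24 and 1.47 CPM) with sgWRN2, and 7 and 8 counts (0.417 and 0.482 CPM) with sgWRN3. Both sgWRN2 libraries were above the other 4, and the sgWRN3 and control libraries overlapped. Of all tested genes, 21.6% had both sgWRN2 libraries above both controls, and 18.8% had them above both sgWRN3 libraries. VIM rose with sgWRN2 (log2 fold change 2.25, SE 0.377, adjusted p = 0.00584), the only one of the 9 genes called there, while 3.08% of all tested genes were called and 1.13% were called higher. With sgWRN3 the log2 fold change was 0.21 (SE 0.478, adjusted p = 1), and 0 genes of 14199 were called by edgeR, with 262 at an unadjusted p under 0.05 and 9 called by DESeq2 and 0 by limma-voom. VIM was higher with sgWRN2 than with sgWRN3 in the direct test of the guides (log2 2.03, SE 0.395, adjusted p = 0.0325), the only called gene of the 9 against 0.944% of all tested genes.

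These VIM calls rest on few reads. Without SW48 control A the sgWRN2 value was 1.89 (adjusted p = 0.0914), and without SW48 sgWRN2 A it was 1.91 (adjusted p = 0.0858). In the remaining alternatives the adjusted p ran from 1.16e-05 to 0.0254. The difference between guides was lost in 9 of 22 alternatives, among them those without SW48 sgWRN2 A (1.70, adjusted p = 0.322), sgWRN2 B (2.29, adjusted p = 0.0933), sgWRN3 A (1.93, adjusted p = 0.193) or sgWRN3 B (2.12, adjusted p = 0.222), and in the other 13 the adjusted p ran from 7.84e-04 to 0.0472. The antisense gene VIM-AS1, whose reads cannot be told apart from those of VIM without strand, had 10 and 10 counts in the SW48 controls, 6 and 2 with sgWRN2 and 2 and 8 with sgWRN3.

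ZEB1 in SW48 had 31 and 33 counts with the control guide, 35 and 32 with sgWRN2 and 23 and 33 with sgWRN3. By CPM, both sgWRN2 libraries (2.12 and 2.04) were above both controls (0.993 and 1.78), as was so for 21.6% of all tested genes. The log2 difference was 0.66 (SE 0.303, adjusted p = 0.376). The spread between the controls was as wide as the step to sgWRN2. The 6 counts of CDH2 in SW48 all came from sgWRN2 A, whose partner B had 0 (adjusted p = 0.223). With no filter on low counts CDH2 was called there too (adjusted p = 0.0283), on that single library. Of the 6 SW48 libraries, sgWRN2 A also had the most VIM and ZEB1 by CPM, and it was 1 of 2 with any ZEB2.

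**Figure D3:**
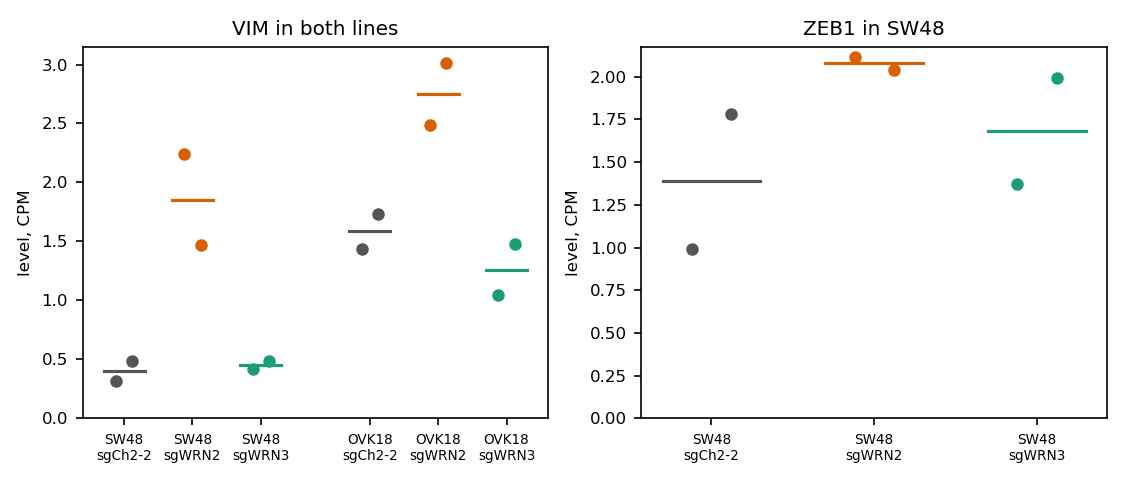
Level in CPM of VIM in both lines and of ZEB1 in SW48, by guide, where each point is 1 library and the bar is the mean of 2. For VIM the sgWRN2 pair is above the other pairs in each line, at 1.47 and 2.24 CPM in SW48 and 2.49 and 3.01 CPM in OVK18, and for ZEB1 the control libraries span 0.993 to 1.78 CPM.

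In OVK18 the sgWRN2 libraries were likewise the highest for VIM, without a call. The sgWRN2 libraries, at 2.49 and 3.01 CPM, were above the controls at 1.44 and 1.73 and the sgWRN3 libraries at 1.05 and 1.47, and 19.2% of all tested genes were above both controls in this way with sgWRN2. The log2 difference was 0.78 for sgWRN2 (SE 0.280, adjusted p = 0.237) and -0.33 for sgWRN3 (SE 0.301, adjusted p = 1), and between the guides it was 1.11 (SE 0.293, adjusted p = 0.111). With no filter on low counts the difference between guides was called (1.13, adjusted p = 0.0276). The sgWRN2 response of VIM in SW48 exceeded that in OVK18 by a log2 value of 1.47 (SE 0.474, adjusted p = 0.475, with 0.303% of all tested genes called), so the lines were not shown to differ. In OVK18 0 of the 9 genes was called with sgWRN2 (0.796% of all tested genes), with sgWRN3 (0%) or between the guides (0.747%). At an unadjusted p under 0.05 edgeR counted 2 (VIM and GRHL2), 0 and 1 (VIM), against 13.9%, 0.817% and 14.5% of all tested genes. DESeq2 and limma-voom called 0 in each. With sgWRN2 and between the guides, however, DESeq2 gave 2 of the 9 no adjusted p and so could not call them.

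The other mesenchymal genes of OVK18 differed little with the WRN guides. ZEB1 differed by -0.020 on the log2 scale (SE 0.132), CDH2 by -0.063 (SE 0.289) and ZEB2 by -0.095 (SE 0.168) with both guides averaged. Both sgWRN2 libraries were below both controls for ZEB2, at 23.3 and 20.2 CPM against 23.4 and 27.1 (log2 -0.21, SE 0.196, adjusted p = 0.698), as were 21.4% of all tested genes. GRHL2, at the low counts it has in OVK18, stood at 0.491 and 0.329 CPM with sgWRN2 against 0.117 and 0.186 in the controls, 14 and 6 counts against 3 and 6 (log2 1.43, SE 0.397, adjusted p = 0.186). The summed level of the 5 epithelial genes in OVK18 was 0.610 to 1.09 CPM over all 6 libraries, so no library of that line approached the SW48 level of these genes.

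The wider epithelial programme followed the members between the lines, with exceptions. Of 24 junction and polarity genes, 23 were tested, 19 were higher in SW48 with the control guide, 3 were lower and 1 was not called, where 33.9% of all tested genes were higher and 34.7% lower. Of the 23, 9 passed the filter on low counts only through SW48 and had to come out higher. The other 14 would have passed on either line alone, and of these 10 were higher, 3 lower and 1 not called. The median log2 difference of the 23 was 4.81, against 0.00011 over all genes tested, and 4.81 again with the 3 genes at 0 in the OVK18 controls set to their bound. That median includes the 9 genes that had to be higher. Among those with the smallest p-values were MAL2 (log2 10.30, SE 0.274), an apical transport protein, CDH3 (10.78, SE 0.351), P-cadherin, and ST14 (12.61, SE 0.382), the protease matriptase. MAL2, CDH3 and ST14 all passed the filter only through SW48, so they had to come out higher there. TJP1, the scaffold ZO-1, was lower in SW48 (393 CPM in the median library against 1418 in OVK18, log2 -1.86), as were OCLN (-0.75) and TJP3 (-1.50). CLDN7 stood at 69.3 to 94.1 CPM in SW48 and 48.7 to 85.2 in OVK18 (log2 0.014, SE 0.165, adjusted p = 0.944). TJP1, OCLN and TJP3 were thus higher in OVK18, where CDH1 and CLDN4 were at or near 0.

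Of 15 other epithelial transcription and splicing regulators, 13 were higher in SW48 and 2 were lower, with a median of 8.22, or 7.74 with the 1 gene at 0 in the OVK18 controls (ELF5) at its bound. Here and for the keratins below, the shares of all tested genes were 33.9% higher and 34.7% lower. Of the 15, 7 entered only through SW48, 1 only through OVK18 and 1 (TP63) only with the libraries of both lines together. Of the 6 that would have passed on either line alone, 5 were higher and 1 lower. EHF and KLF5, epithelial transcription factors, differed by 11.93 (SE 0.214) and 9.36 (SE 0.182), and the GRHL2 paralog GRHL3 by 8.56 (SE 0.202). FOXA2, a forkhead factor of endoderm, was lower in SW48 (-8.72) and so was TFAP2A (-1.51). EHF entered only through SW48 and FOXA2 only through OVK18, so both had to differ in these directions. The 8 tested keratins of 10 were all higher in SW48 (median 7.17, or 5.51 with KRT5 and KRT14 at their bounds), but 6 of the 8 entered only through SW48 and had to be higher, and KRT8 and KRT18 alone would have passed on either line. KRT8 (8.96, SE 0.220), KRT18 (5.90, SE 0.188) and KRT19 (10.41, SE 0.270), the keratins of simple epithelia, and KRT80 (10.19, SE 0.407) led them. KRT18 remained at 9.94 to 14.8 CPM in OVK18, where KRT8 was at 1.32 to 2.63 CPM.

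**Figure D4:**
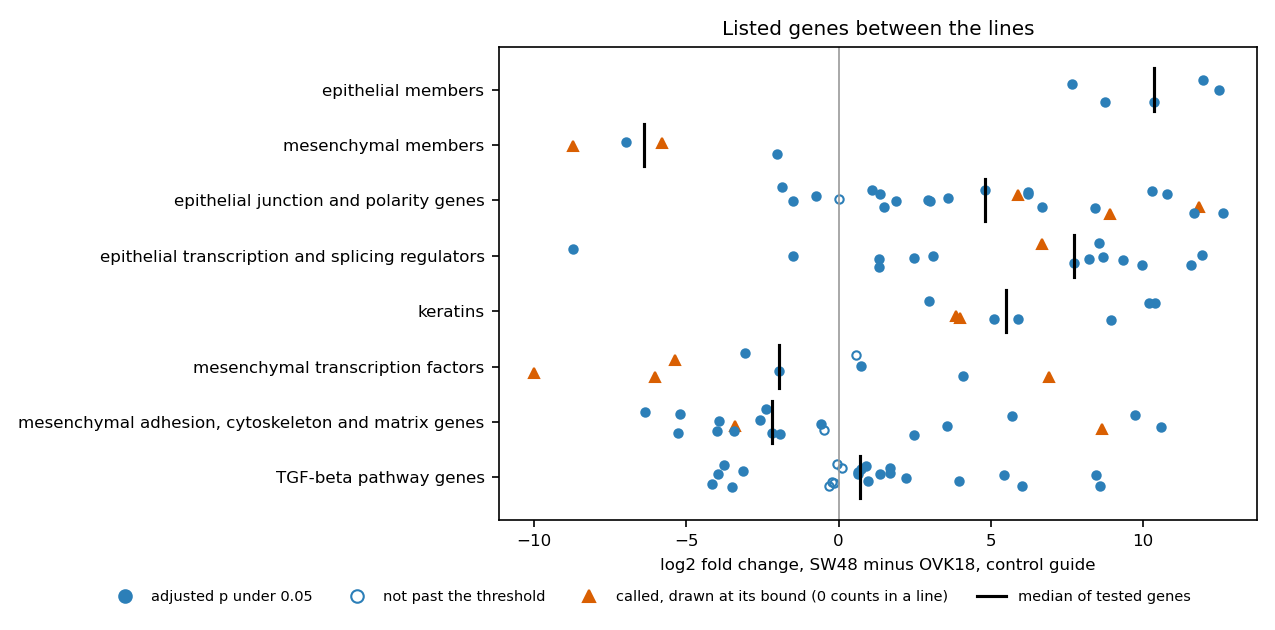
Log2 fold change between SW48 and OVK18 with the control guide for the tested genes of 8 lists, where each circle is a gene, filled if its adjusted p is under 0.05, a triangle is a called gene at 0 counts in the controls of a line, drawn at its bound from a floor of 3 counts, and the black bar is the median of the list. Epithelial lists lie mostly to the right (median 4.81 for junction genes), whereas mesenchymal transcription factors lie on both sides of 0 (median -1.95), with PRRX1 at a bound of 6.91.

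The mesenchymal programme was less uniform. Of 13 further mesenchymal transcription factors 9 were tested, and 5 were lower in SW48, 3 were higher and 1 was not called (median -1.95, with or without bounds). For this list and the next, the shares of all tested genes were 34.7% lower and 33.9% higher. Of these 9, 3 entered only through OVK18 and 2 only through SW48, and the other 4 gave 2 lower, 1 higher and 1 not called. FOXC1 (-3.08, SE 0.120) and TWIST1 were higher in OVK18. TWIST1 stood at 3.18 to 4.98 CPM in OVK18 with 1 count over the SW48 libraries and 0 in the SW48 controls (at least 66.0-fold higher in the OVK18 controls). PRRX1 went the other way, at 5.31 to 7.02 CPM in SW48 and 0 in OVK18 (at least 120-fold higher in the SW48 controls). TWIST1 entered only through OVK18 and PRRX1 only through SW48, so both had to differ in these directions. SNAI1, which encodes SNAIL, differed by 0.59 (SE 0.296, adjusted p = 0.0957). Of 28 mesenchymal adhesion, cytoskeleton and matrix genes 19 were tested, with 12 lower in SW48, 6 higher and 1 not called (median -2.20, with or without bounds). Of these 19, 4 entered only through OVK18 and 3 only through SW48, and the other 12 gave 8 lower, 3 higher and 1 not called. The contractile gene TPM2 was lower in SW48 (-6.37, SE 0.127). CD44 (10.58, SE 0.210), NT5E (9.74, SE 0.232), which encodes CD73, and S100A4 (5.69, SE 0.152) were higher in SW48, although all 3 stand on mesenchymal lists. CD44 and NT5E entered only through SW48 and had to be higher there, whereas S100A4 would have passed on either line alone. The fibroblast gene THY1 was at 0 in all 12 libraries, and in SW48 DCN, LOX, MMP2 and POSTN were at 0 as well.

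TGF-beta signalling is a known inducer of ZEB1, ZEB2 and SNAI2, and 24 of its genes were tested. In SW48, 14 were higher, 5 lower and 5 not called (median 0.69). With 19 of 24 called, the list was near the 68.6% of all tested genes. BAMBI, a decoy receptor, was higher in SW48 (8.59, SE 0.195), as were the ligand TGFB2 (6.04, SE 0.198) and the inhibitor SMAD7 (5.43, SE 0.182). SMAD3, the receptor-activated transducer, was higher in OVK18 (-3.96, SE 0.102), where it stood at 1204 to 1547 CPM against 93.3 to 105 in SW48. No gene of these 6 lists was called in any comparison that involved a WRN guide within a line. KRT19 came nearest with sgWRN2 in SW48 (log2 0.55, SE 0.137, adjusted p = 0.053), a gene chosen for mention after its values were seen.

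Promoters were searched for the E-box that ZEB and SNAI proteins bind, CAGGTG on either strand, in RefSeq windows from 250 bases before to 50 after a gene's start (GRCh38.p14). It occurred in 20.6% of 35116 such windows, and 3 or more copies in 0.635%. Of the members, CLDN4, VIM, CDH2, ZEB1 and ZEB2 had windows, and only ZEB1 held the motif, in 2 of 7 windows. Of the junction genes 11 had windows and 9 held it in at least 1 of them, as did 24.1% of 27305 genes. The windows below are those of ZEB1 with 3 copies, of the polarity gene CRB3 with 5 and of the trafficking gene RAB25 with 2, with E-boxes in capitals. RAB25 and CRB3 are shown as junction genes that went with CDH1: RAB25 stood at 65.9 to 84.5 CPM in SW48 with 1 count in OVK18, and CRB3 at 8.71 to 13.7 CPM in SW48 and at most 0.218 in OVK18. Both passed the filter on low counts only through SW48, so they had to be higher there.
ZEB1, chr10:31318966-31319265, plus strand: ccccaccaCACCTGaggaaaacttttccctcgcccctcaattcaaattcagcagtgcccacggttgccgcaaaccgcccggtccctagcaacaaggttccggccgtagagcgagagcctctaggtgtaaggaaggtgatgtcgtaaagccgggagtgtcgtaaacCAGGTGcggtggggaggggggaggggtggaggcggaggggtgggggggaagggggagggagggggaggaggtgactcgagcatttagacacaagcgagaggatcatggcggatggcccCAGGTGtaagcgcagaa
CRB3, chr19:6464021-6464320, plus strand: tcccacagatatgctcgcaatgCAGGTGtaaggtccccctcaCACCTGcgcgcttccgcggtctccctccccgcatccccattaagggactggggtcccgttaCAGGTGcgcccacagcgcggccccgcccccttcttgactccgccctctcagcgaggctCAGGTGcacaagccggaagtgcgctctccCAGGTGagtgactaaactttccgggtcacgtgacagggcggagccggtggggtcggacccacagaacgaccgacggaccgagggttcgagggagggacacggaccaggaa
RAB25, chr1:156060910-156061209, plus strand: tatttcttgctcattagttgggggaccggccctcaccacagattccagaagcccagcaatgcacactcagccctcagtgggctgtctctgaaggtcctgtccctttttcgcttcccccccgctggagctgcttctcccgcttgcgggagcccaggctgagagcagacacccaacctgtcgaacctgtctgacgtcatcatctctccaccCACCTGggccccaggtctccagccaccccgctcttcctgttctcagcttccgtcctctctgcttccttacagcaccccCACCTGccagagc
CLDN7, which was not called between the lines, held 5 copies in 1 of its 2 windows, and TJP1, OCLN and TJP3, all higher in OVK18, held the motif as well. A match is a description of letters and not a measured site.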

How the data were processed

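The authors deposited read counts per gene and, in a further table, FPKM values, both with a column for each of the 12 libraries. Per the submitters' processing notes, bcl2fastq 2.18, STAR 2.5 and Cufflinks 2.2.1 were used with genome build hg19, and the annotation and strand setting are not given in the sources used here. Per the labels' protocols, mRNA libraries were made with a Roche Kapa kit from 100 ng of total RNA. That the deposited second table holds FPKM was read from the tool's name and from the values. Counts on 92 spike-in features, all 0, were left out.

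Counts were tested with edgeR 4.0.16 (R 4.3.3): TMM scaling, its filter on low counts by group (14199 of 25343 genes kept), 1 coefficient per group over all 12 libraries with 6 residual degrees of freedom, a robust quasi-likelihood fit and Benjamini-Hochberg adjustment over all genes tested. CPM are counts over the TMM-scaled library size, and the SE is the log2 fold change over the root of the F statistic. Of 13 contrasts, the test of the sgWRN2 response between lines was added after values were seen. Ratios of counts carry exact 95% binomial intervals, and a floor is 3 counts. Alternatives used DESeq2 1.42.0, limma 3.58.1, other scalings and filters, and single libraries left out. The scripts were tested on simulated data.

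The members and the gene lists were chosen with earlier results of these data known. Named were all members, WRN, and from each list up to 4 genes with the smallest p between lines, of which some are not reported here. PTPRC and EGFL7 were the genes so named among leukocyte and endothelial markers, and EGFL7 differed by 0.79. Listed genes named beyond that rule were chosen after their values were seen. Genes most like a member were not named, because no member reached 5 CPM in all 12 libraries.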

Additional observations from a re-analysis of the deposited data

How the results depend on the processing

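Between the lines, 6 to 9 members were called with the control guide, 6 to 8 with sgWRN2 and 6 to 9 with sgWRN3, over 25, 23 and 25 alternatives, all in the reported directions; requiring a mean of 5 CPM left 6. With both WRN guides averaged, 0 members were called in either line in all 26 alternatives each, and 0 differed between the lines in 25. Among the 26, DESeq2 gave 2 members no adjusted p in each line. For sgWRN2 in SW48 the count of 1 became 2 with no filter and 0 with a mean of 5 CPM, and 0 to 1 with a library left out. Between the guides in SW48 the count of 1 became 0 with a mean of 5 CPM, on the log2(FPKM + 1) scale and in a fit of the line's 6 libraries, and 0 to 1 with a library left out, and DESeq2 gave VIM no adjusted p there. In OVK18 the count between guides became 1 with no filter. The cause was not tested, except that the mean of 5 CPM removes VIM. Counts over all genes moved more: 123 for both guides in SW48 became 0 to 298, 4 in OVK18 became 0 to 30, 4 for the difference between lines became 0 to 17, 437 for sgWRN2 in SW48 became 148 to 709, 0 for sgWRN3 in SW48 became 0 to 151 and in OVK18 0 to 12, 113 for sgWRN2 in OVK18 became 18 to 439, 134 and 106 between the guides became 3 to 334 in SW48 and 11 to 530 in OVK18, and 43 for the sgWRN2 response between lines became 15 to 128. With size factors in the manner of DESeq2 the share called higher moved from 67.3% to 79.6% for sgWRN2 in OVK18 and from 58.5% to 70.5% between the guides there.

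Signs that turned were of values near 0 or on few counts, none of them called. Without the sgWRN2 libraries, and again with a replicate block added, the pooled OVK18 values were -0.15 and -0.17 for CDH1, 0.14 and 0.17 for EPCAM, -0.33 and -0.33 for VIM, and 0.023 and 0.022 for ZEB2. GRHL2 in SW48, at 0.0088, became -0.0072 with library size alone, -0.00073 with a mean of 5 CPM, -0.015 and -0.015 without the sgWRN2 libraries without and with the block, and -0.054 and -0.059 on the log2(FPKM + 1) and log2(FPKM + 0.1) scales; CLDN4 there became -0.040 and -0.051 on those scales. With single libraries left out, the pooled values ran from -1.23 to 4.28 for CDH1, -0.83 to 0.63 for EPCAM, -2.24 to 0.42 for ESRP1, -0.13 to 0.013 for CDH2, -0.11 to 0.065 for ZEB1 and -0.19 to 0.022 for ZEB2 in OVK18, and from -0.11 to 0.049 for EPCAM, -0.0066 to 0.015 for GRHL2 and -0.059 to 0.073 for CLDN4 in SW48; VIM with sgWRN3 in SW48 ran from -0.11 to 0.49.

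The letters A and B did not pair the libraries across all guides: A minus B differences of the control and sgWRN3 libraries correlated at 0.63 in SW48 and 0.64 in OVK18, but those of sgWRN2 with either at -0.45 to -0.12. With a replicate block, 28 genes in place of 123 were called with both guides in SW48, 265 in place of 437 with sgWRN2 in SW48 and 38 in place of 113 in OVK18, and the count of 1 member between the guides in SW48 became 0 (VIM 2.03, adjusted p = 0.078). With the block but without the sgWRN2 libraries, 151 genes in SW48 and 12 in OVK18 were called with sgWRN3, in place of 0 with neither or only 1 of these changes, and 0 members were among them.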

Other observations

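The 8 tested keratins had log2 differences of 0.097 to 0.68 with sgWRN2 in SW48 (median 0.44), and 0 passed the threshold. KRT8, KRT18, KRT19 and KRT80 differed by 0.41, 0.42, 0.55 and 0.47 on the log2 scale (SE 0.145, 0.149, 0.137 and 0.188), with edgeR adjusted p = 0.214, 0.204, 0.053 and 0.297. Both sgWRN2 libraries were above both controls for these 4 genes, and for KRT5 and KRT14, as was so for 21.6% of all tested genes. The 4 genes were singled out after their values were seen.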
